A study of Mus musculus with 115 samples.

Results

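The genes described here carry fatty acids into the heart muscle cell, split and oxidise them in mitochondria, sense them in the nucleus and oxidise ketone bodies. They were chosen by function, with earlier results of these data known, as a list of 37 mouse genes. Of these, 31 have an amplicon among the 23930 on the panel. Fabp3, Cpt1b, Hadhb, Etfb, Acot1 and Acot2 were not analysed here. All 31 measured genes passed the filter on low counts, and the lowest value of any of them in a heart was 110 reads.

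The study counted RNA from mouse hearts with an amplicon panel in 112 bulk libraries, summed here into 22 hearts by the number in each title. KO ND6 mice (C57BL/6JEiJ ANT1 -/- ND6 P25L) lack Slc25a4, the gene for the ADP and ATP exchanger Ant1, and carry a change in the mitochondrial DNA gene for a complex I subunit. KO mice (C57BL/6JEiJ ANT1 -/-) lack Slc25a4 only, and WT mice are C57BL/6JEiJ.

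Every mouse of these groups had received 2.5e+11 vector genomes of an AAV2/9 virus into the pericardium. It carried either Des-Gfp-mAnt1, called the Ant1 vector here, or Des-Gfp, called the control vector. No group was left without a virus, so no value describes an uninjected heart. With the Ant1 vector there were 3 KO ND6, 4 KO and 3 WT hearts, and with the control vector 3 KO ND6, 3 KO and 4 WT hearts. Hearts 61 and 91 are KO ND6 hearts whose treatment label names the control vector while the code in their titles is the one of Ant1 vector hearts. They entered the fit as a group of their own and no comparison. The months after injection are given as 1, 3, 6, 9 and 12 for the study but not per heart, so age could differ between groups.

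The targeted gene was read first. Slc25a4 had 55.6, 66.7 and 0.731 CPM (reads scaled to a common library size after TMM normalization) in KO ND6 Ant1 vector hearts 37, 5 and 8, and 0.219 to 0.851 CPM in KO ND6 control vector hearts. It had 174 to 241 CPM in KO Ant1 vector hearts and 0.330 to 2.03 CPM in KO control vector hearts, against 8459 to 11380 CPM over all WT hearts. Heart 8, labelled Ant1 vector, thus had a level like that of the control vector nulls, and the vector comparison in KO ND6 hearts includes it as labelled. Hearts 61 and 91 had 169 and 151 CPM.

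Summed reads per heart ran from 16827518 to 54779297. Cardiomyocyte marker genes summed to between 66400 and 82200 CPM in every heart, which is the tissue the labels name. Bulk RNA cannot tell fewer cells of a type from less RNA per cell. Among 8 adipocyte markers, Cfd ran from 4.31 CPM in KO ND6 Ant1 vector heart 5 to 350 CPM in WT control vector heart 70, and Adipoq from 0.0736 to 9.06 CPM in the same hearts. Hearts 27 (KO) and 37 (KO ND6), both Ant1 vector, stood apart from their groups, with median differences of 0.203 and 0.218 on the log2 scale from the other hearts of the group, against 0.0894 to 0.165 for all other hearts. Their libraries share a set of 2 tables that holds no other heart. Libraries came in 6 such sets of tables, and hearts 61 and 91 aside none of them held both vectors of 1 genotype, so in the vector comparisons vector and table set cannot be told apart. Hearts 61 and 91 share a set with KO ND6 control vector heart 22 and WT control vector heart 70. Genotypes did share some sets, and a fit with the set as a covariate is given beside those results. The labels do not say that hearts are separate animals, so p values measure the spread between hearts as numbered.

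In textbook terms, lipoprotein lipase releases fatty acids in the capillary, Cd36 and Slc27a1 take them up, and acyl-CoA synthetases such as Acsl1 trap them as acyl-CoA. The carnitine shuttle moves the acyl group into the matrix, its first step is inhibited by malonyl-CoA, and the beta-oxidation spiral passes electrons to the respiratory chain through Etfa, Etfb and Etfdh. The nuclear receptors Ppara and Ppard drive many of these genes, Angptl4 is one of their classic targets, and ketone bodies enter through Bdh1 and Oxct1. A healthy adult heart draws most of its ATP from fatty acids.

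Most of the spiral varied little between the 6 groups. For 26 of the 31 genes the highest group mean was less than 1.5 times the lowest. The same share over all amplicons is not given here. Acadl, the long-chain acyl-CoA dehydrogenase, varied least, with a highest mean of 789.5 CPM in WT Ant1 vector hearts and a lowest of 724 CPM in KO Ant1 vector hearts. The 5 genes above 1.5 times were Angptl4 at 4.36 times, Bdh1 at 1.87, Cpt1a at 1.57, Acacb at 1.56 and Acsl1 at 1.53. Angptl4 also varied most within groups, with a pooled SD of 0.61 on the log2 scale against a median of 0.15 over the 31 genes. Over 9 pairwise comparisons 14 genes passed an adjusted p of 0.05 at least once, 45.2% of the list beside 34.7% of all amplicons tested. The 17 that never did were Lpl, Slc27a1, Cpt2, Crat, Plin2, Plin5, Pnpla2, Ppard and the beta-oxidation genes Acadl, Acadm, Acads, Acadvl, Hadh, Acaa2, Echs1, Eci1 and Eci2.

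**Figure D1:**
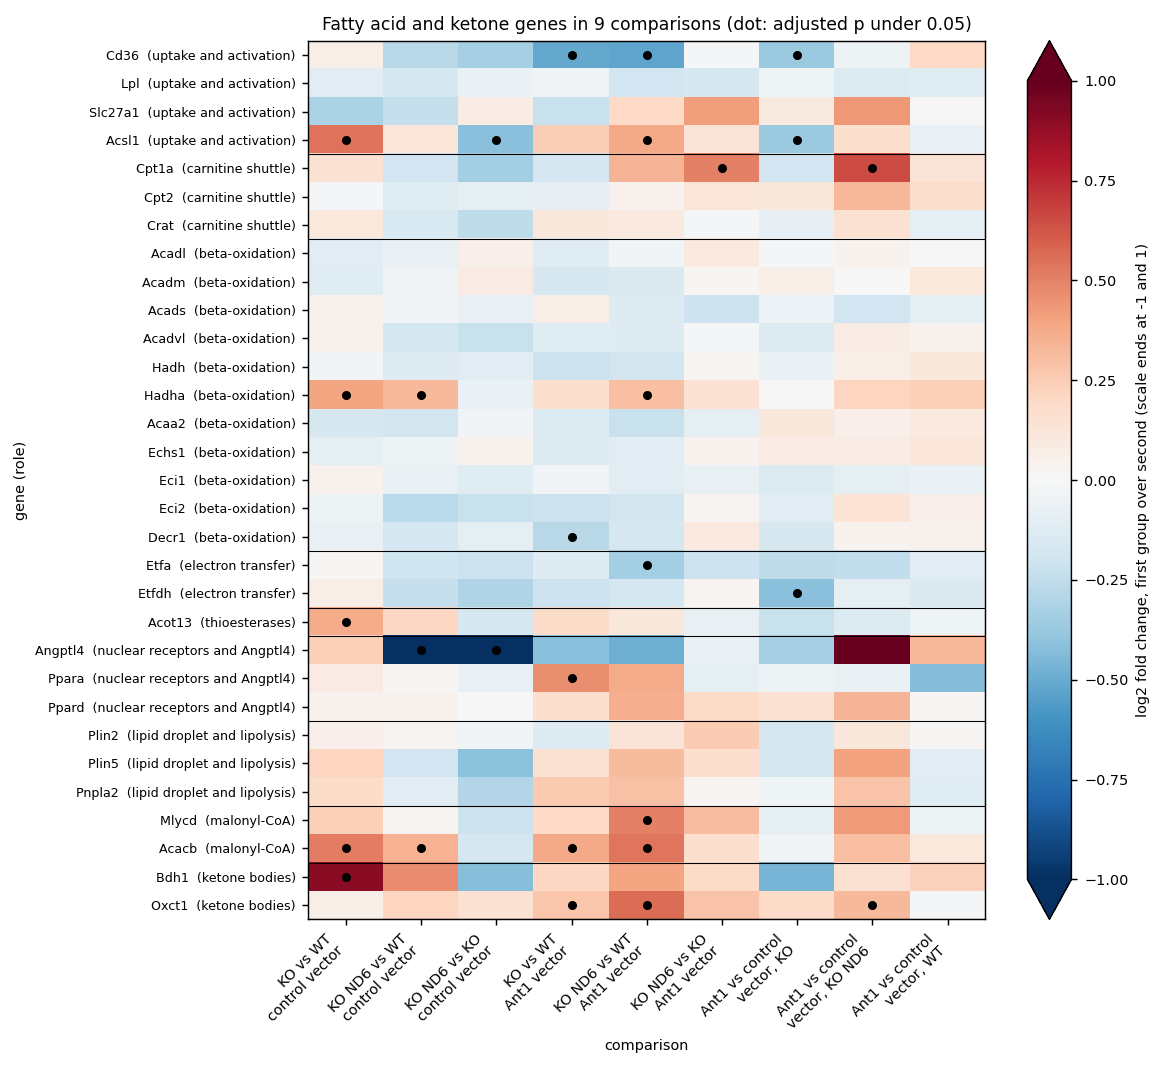
Log2 fold change (colour) of the 31 genes (rows, by role) in 9 comparisons (columns), with a dot where the adjusted p was under 0.05. Most of the beta-oxidation rows are pale in every column, Acacb is red in all 4 columns that set a null against WT, and Angptl4 passes the colour scale, at -1.79 and -2.04 in KO ND6 against WT and against KO under the control vector.

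Loss of Ant1 under the control vector came with higher RNA of 5 genes with different roles. They were Acacb, Acsl1, Hadha, Acot13 and Bdh1, at 1.29 to 1.87 times the WT level. No gene of the list fell. The comparison asks what lack of Ant1 does in hearts that got the Gfp virus. By edgeR's quasi-likelihood test 5 of 31 genes rose, against 8.19% of all 15403 amplicons tested, and none fell, against 6.23%. At an unadjusted p under 0.05 there were 6 of 31, beside 4388 of all 15403 amplicons. Both directions together gave 16.1% of the list and 14.4% of all amplicons, so the share called was near the background. The median log2 fold change was 0.05 over the 31 genes and -0.03 over all amplicons.

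Acacb encodes the acetyl-CoA carboxylase that makes malonyl-CoA at the mitochondrial surface, the inhibitor of fatty acid entry. It had 297, 297 and 332 CPM in KO hearts, against 201, 220, 208 and 237 CPM in WT hearts. Every KO heart lay above every WT heart, and the log2 fold change was 0.51 ± 0.09 (SE, adjusted p = 0.000498). Acsl1, the main long-chain acyl-CoA synthetase of heart, had 1181, 1252 and 1264 CPM in KO hearts and 917, 836, 775 and 859 CPM in WT hearts. Its groups did not overlap either (0.54 ± 0.09, adjusted p = 0.000349). Acsl1 lies at chr8:46471037-46536051 (mm10), 0.26 Mb from Slc25a4 itself at chr8:46206797-46211284. In KO ND6 hearts, which lack Slc25a4 as well, Acsl1 gave 0.12 against WT under the control vector (adjusted p = 0.415) and 0.38 under the Ant1 vector (adjusted p = 0.0102). The part of this distance in the Acsl1 values was not tested.

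Hadha encodes the alpha subunit of the trifunctional protein, which carries out later steps of long-chain beta-oxidation. It had 723, 744 and 770 CPM in KO hearts, against 539, 583, 537 and 607 CPM in WT hearts. The groups were apart (0.40 ± 0.09, adjusted p = 0.0057). It was the only one of the 11 measured beta-oxidation genes to pass the test here. The other 10 lay within 1.2-fold of WT, as did 8785 of all 15403 amplicons. Acot13, an acyl-CoA thioesterase, had 709, 794 and 785 CPM in KO hearts and 614, 653, 580 and 510 CPM in WT hearts (0.37 ± 0.09, adjusted p = 0.00526), again without overlap. Bdh1, the dehydrogenase that turns beta-hydroxybutyrate into acetoacetate, showed the largest rise of the list. It had 414, 367 and 331 CPM in KO hearts, against 190, 234, 236 and 135 CPM in WT hearts. The log2 fold change was 0.90 ± 0.18 (adjusted p = 0.00162), the groups did not overlap, and WT heart 70 was the lowest of all.

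All 5 rises passed the threshold in every alternative run for this comparison, including each heart left out and the table set as a covariate, where the log2 fold change of Bdh1 was 1.15 and the other 4 lay between 0.32 and 0.53. KO heart 35, the one KO heart that shared tables with WT hearts 23 to 25, lay above those hearts for all 5 genes. Its place follows from the lack of overlap given above and is no separate test. Hepatocyte markers summed to 4.74 to 5.81 CPM in KO hearts and 2.66 to 253 CPM in WT hearts, where Alb reached 159 CPM in heart 23. Fibroblast markers summed to 1070 to 1380 CPM in KO hearts and 1530 to 1590 CPM in WT hearts, and 3 of 5 fell. Of 5 endothelial markers 1 rose. Of 4 brown adipocyte markers 1 fell, with sums of 837 to 898 CPM in KO hearts and 855 to 996 CPM in WT hearts. Ucp1 among them had 0.0327 to 1.22 CPM in KO hearts and 6.55 to 35.1 CPM in WT hearts, without overlap. The brown adipocyte sums were thus set mostly by the other markers of the 4. Ucp1 also lies on the chromosome of Slc25a4, at chr8:83290352-83298452 (mm10). The part of these markers in the result was not tested, nor that of this position in the Ucp1 values.

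**Figure D2:**
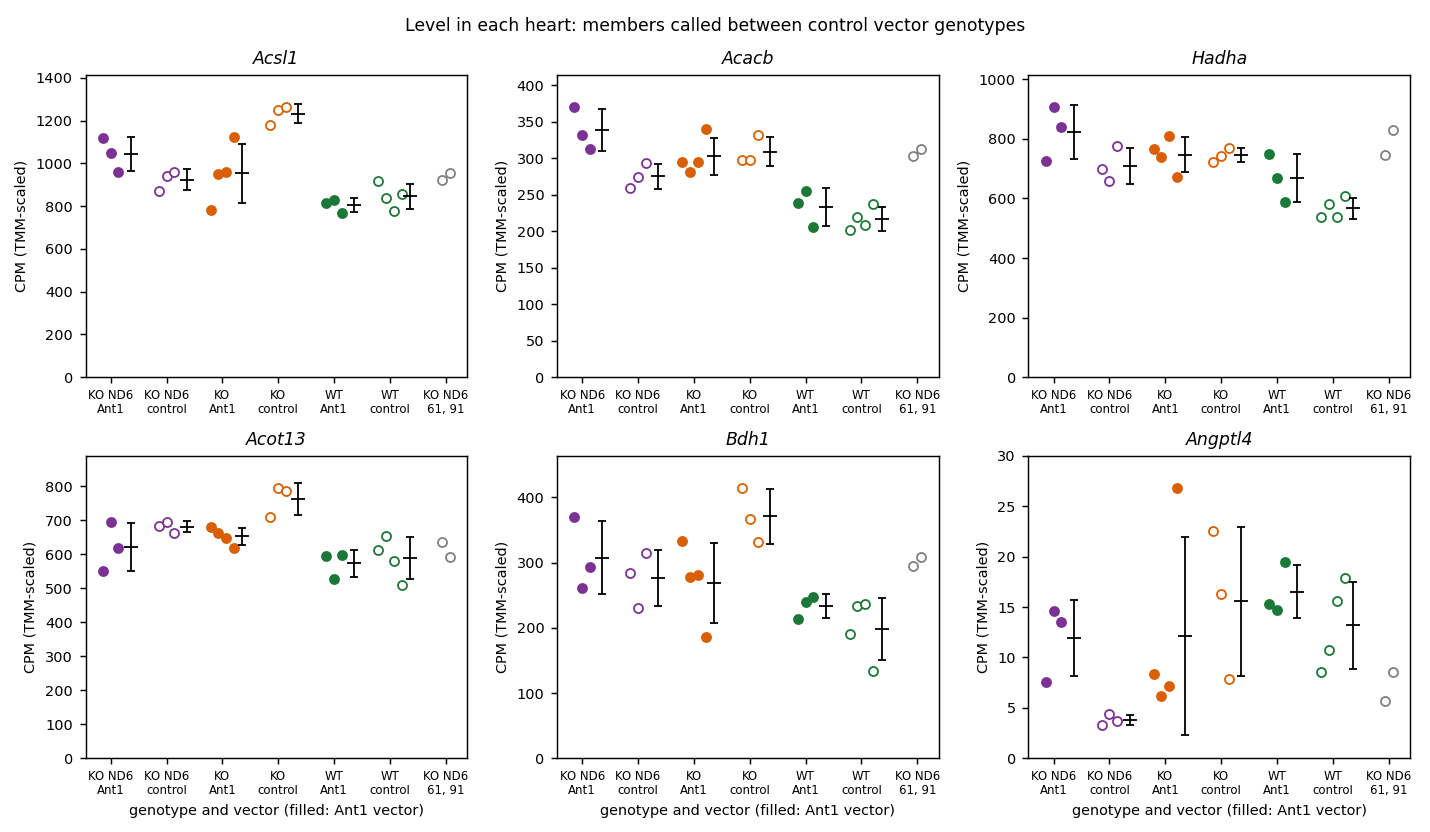
CPM of 6 genes in each heart (points, filled for the Ant1 vector), with the group mean and SD beside them, for each genotype and vector. KO control vector hearts are above WT control vector hearts for Acsl1, Acacb, Hadha, Acot13 and Bdh1, and the 3 KO ND6 control vector hearts have the lowest Angptl4 values, at 3.32 to 4.38 CPM.

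The uptake and receptor genes gave other values. Cd36, the fatty acid translocase, had a log2 fold change of 0.06 ± 0.11 (adjusted p = 0.773) and Lpl one of -0.11 ± 0.08 (adjusted p = 0.404). Neither passed, nor did Ppara (0.08, adjusted p = 0.704), Angptl4 (0.24 ± 0.41, adjusted p = 0.748) or Plin5, which coats lipid droplets beside mitochondria (0.22, adjusted p = 0.255). Acadm, the medium-chain dehydrogenase, gave -0.12 (adjusted p = 0.528), Cpt2 of the inner membrane -0.02 (adjusted p = 0.927) and Etfdh 0.07 (adjusted p = 0.72). Oxct1, which activates acetoacetate, gave 0.06 (adjusted p = 0.672).

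The sequences just before the start of Acacb and Hadha are shown because these genes were higher in both null genotypes, that of Oxct1 because it passed in both nulls under the Ant1 vector, and that of Cd36 because it holds a match to a PPAR motif. They are RefSeq windows on GRCm38.p6, from 250 bases before to 50 bases after the annotated start, written 5′ to 3′ along the gene, at chr5:114165268-114165567 (plus strand), chr5:30154931-30155230 (minus), chr15:4026178-4026477 (plus) and chr5:17835847-17836146 (minus). The Acacb and Cd36 windows lie inside these genes as GENCODE places them (chr5:114146535-114250761 and chr5:17781690-17888801, mm10), not at their outermost starts. Capitals mark a match to the PPAR and RXR direct repeat on either strand.
Acacb: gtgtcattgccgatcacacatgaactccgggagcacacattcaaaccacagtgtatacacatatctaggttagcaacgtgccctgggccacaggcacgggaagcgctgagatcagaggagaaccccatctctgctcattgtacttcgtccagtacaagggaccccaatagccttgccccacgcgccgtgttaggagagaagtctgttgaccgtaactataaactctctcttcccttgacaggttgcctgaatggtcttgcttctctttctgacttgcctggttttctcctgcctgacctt
Hadha: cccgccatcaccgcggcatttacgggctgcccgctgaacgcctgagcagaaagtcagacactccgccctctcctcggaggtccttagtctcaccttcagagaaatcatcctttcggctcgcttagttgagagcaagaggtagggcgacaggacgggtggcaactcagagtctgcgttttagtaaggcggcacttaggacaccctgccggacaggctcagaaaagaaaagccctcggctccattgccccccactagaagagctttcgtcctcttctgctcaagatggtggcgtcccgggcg
Oxct1: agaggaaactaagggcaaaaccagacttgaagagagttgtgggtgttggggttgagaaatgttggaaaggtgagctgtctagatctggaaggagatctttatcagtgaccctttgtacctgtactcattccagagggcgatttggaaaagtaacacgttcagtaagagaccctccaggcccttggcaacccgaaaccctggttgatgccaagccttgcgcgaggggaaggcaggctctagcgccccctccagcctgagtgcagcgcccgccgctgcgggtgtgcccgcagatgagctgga
Cd36: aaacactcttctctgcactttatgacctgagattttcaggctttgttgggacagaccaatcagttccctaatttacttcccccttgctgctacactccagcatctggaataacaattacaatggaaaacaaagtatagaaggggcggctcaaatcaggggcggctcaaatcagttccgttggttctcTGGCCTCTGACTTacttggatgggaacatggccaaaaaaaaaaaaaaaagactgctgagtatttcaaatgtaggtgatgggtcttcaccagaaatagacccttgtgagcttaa
The motif searched was AGGTCANAGGTCA with at most 2 mismatches in its 12 fixed letters, both strands, where N is any base. It was in 3.86% of all 32851 windows of the table. Of the list, 25 genes had a window, 30 windows in all, and 4 of these held a match, those of Cd36, Plin2, Echs1 and Etfa, each with 2 mismatches. The Cd36 match begins 63 bases before the RefSeq start used for its window and lies on the opposite strand. A match is a run of letters, not a shown site.

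KO ND6 hearts under the control vector were set against WT and against KO hearts to ask what the ND6 change adds. Acacb and Hadha were again higher than in WT, and Angptl4, the secreted inhibitor of Lpl, was at its lowest of any group. Acsl1 and Angptl4 were lower in KO ND6 than in KO hearts. Against WT, 2 of 31 genes rose (background 6.71%) and 1 fell (background 5.97%). Both directions together made 9.68% of the list, below the 12.7% of all amplicons, with a median of -0.11 against -0.01 over all amplicons. Against KO, none rose (background 0.539%) and 2 fell (background 0.519%), with a median of -0.12 against 0.00 over all amplicons. There, 10 of 31 had an unadjusted p under 0.05, beside 2231 of all 15403 amplicons. The comparisons with WT and with KO share the 3 KO ND6 hearts.

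Angptl4 had 3.32, 4.38 and 3.69 CPM in KO ND6 hearts, against 22.5, 16.3 and 7.83 CPM in KO hearts and 8.54, 10.7, 15.6 and 17.9 CPM in WT hearts. All 3 KO ND6 hearts were below every heart of both other groups. The log2 fold change was -1.79 ± 0.45 against WT (adjusted p = 0.0112) and -2.04 ± 0.47 against KO (adjusted p = 0.0361). Within shared tables, KO ND6 heart 22 had 3.69 CPM beside 17.9 CPM in WT heart 70. KO ND6 hearts 20 and 21 had 3.32 and 4.38 CPM beside 16.3 and 7.83 CPM in KO hearts 36 and 38. The order within these tables follows from the lack of overlap and is no separate test. Adipocytes also make Angptl4. Their 8 markers summed to 793 to 922 CPM in KO ND6 hearts, 878 to 999 CPM in KO hearts and 885 to 1330 CPM in WT hearts, and 1 of 8 fell against WT and none against KO. Such a sum can stay level where single markers are low. In KO ND6 Ant1 vector heart 5 it was 921 CPM, with Cfd at 4.31, Cidec at 1.36, Plin1 at 0.626 and Adipoq at 0.0736 CPM. Cfd had 34.3 to 139 CPM in KO ND6 hearts, 61.9 to 79.3 CPM in KO hearts and 35.3 to 350 CPM in WT hearts, and the part of fat in these values was not tested. Against WT, 2 of 3 hepatocyte, 2 of 5 fibroblast, 1 of 4 macrophage and 1 of 4 brown adipocyte markers fell too. Ucp1, on the same chromosome as Slc25a4, had 1.17 to 3.41 CPM in KO ND6 hearts and 6.55 to 35.1 CPM in WT hearts.

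Acacb had 259, 274 and 293 CPM in KO ND6 hearts, above the 201 to 237 CPM of WT hearts (0.35 ± 0.09, adjusted p = 0.0135). Hadha had 698, 657 and 776 CPM, above the 537 to 607 CPM of WT hearts (0.33 ± 0.09, adjusted p = 0.023). Neither group overlapped with WT. Acsl1 had 869, 941 and 960 CPM in KO ND6 hearts, against 1181 to 1264 CPM in KO hearts (-0.42 ± 0.10, adjusted p = 0.0379). Bdh1 had 283, 231 and 315 CPM in KO ND6 hearts, with heart 21 below the highest WT hearts, and gave 0.48 ± 0.18 against WT (adjusted p = 0.0871) and -0.42 against KO (adjusted p = 0.311).

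With the table set in the fit the calls against KO held for both genes, with -0.44 for Acsl1 (adjusted p = 0.00383) and -2.05 for Angptl4 (adjusted p = 0.0267), and Pnpla2, the triglyceride lipase, was added. Against WT none of the 3 calls held, with 0.29 for Acacb (adjusted p = 0.0662), 0.29 for Hadha (adjusted p = 0.0739) and -1.50 for Angptl4 (adjusted p = 0.096). Fewer hearts cost calls too. Against KO, Acsl1 missed the threshold without any 1 of the 6 hearts (adjusted p 0.0735 to 0.167) and Angptl4 without any 1 but KO heart 38 (0.0875 to 0.149). Against WT, Acacb missed it without KO ND6 heart 22 (0.0781), Angptl4 without KO ND6 heart 20 or 22 (0.0527 and 0.0517), and Hadha without KO ND6 heart 20 or 22 or WT heart 23 or 25 (0.0554 to 0.148).

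Of the other genes, Cd36 gave -0.28 ± 0.11 against WT (adjusted p = 0.104) and -0.34 against KO (adjusted p = 0.168). Without WT heart 70, whose Cd36 was 1409 CPM beside 1765 to 1993 CPM in the other WT hearts, 7 of 31 genes passed against WT, with Cd36, Eci2, Etfdh and Oxct1 added. The share of all amplicons called in that run is not given here, so this count has no background beside it. Lpl gave -0.17 against WT (adjusted p = 0.179) and Etfdh, the ubiquinone oxidoreductase that takes electrons from Etfa and Etfb, -0.23 (adjusted p = 0.155). Cpt2 (-0.12), Acadm (-0.04), Plin5 (-0.19), Ppara (0.01) and Oxct1 (0.21) had adjusted p values between 0.082 and 0.976 against WT. Against KO, Lpl (-0.06), Cpt2 (-0.10), Acadm (0.08), Hadha (-0.07), Etfdh (-0.30), Plin5 (-0.41), Ppara (-0.08) and Oxct1 (0.15) had adjusted p values between 0.132 and 0.857.

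The Ant1 vector was set against the control vector within each genotype, the comparison that asks what giving the Ant1 vector does. Mean Slc25a4 with it was 203 CPM in KO and 41.0 CPM in KO ND6 hearts, against 10390 CPM in WT control vector hearts. These comparisons therefore do not show what a return of Slc25a4 RNA to the WT level would do. In KO hearts Acsl1, Cd36 and Etfdh were lower with the Ant1 vector, by 0.37 to 0.42 on the log2 scale. In KO ND6 hearts Cpt1a and Oxct1 were higher. In WT hearts no gene of the list passed. In KO hearts none of 31 rose (background 2.19%) and 3 fell (background 3.27%), in KO ND6 hearts 2 rose (background 1.75%) and none fell (background 0.779%). In WT hearts edgeR called none in either direction (background 0.0519% higher and 0.0649% lower), and DESeq2 called none. There, 2 of 31 genes had an unadjusted p under 0.05, beside 1795 of all 15403 amplicons. The medians of the list were -0.08 in KO, 0.11 in KO ND6 and 0.01 in WT hearts, beside 0.01, 0.00 and -0.01 over all amplicons.

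In KO hearts Acsl1 had 781, 951, 961 and 1122 CPM with the Ant1 vector, all below the 1181, 1252 and 1264 CPM with the control vector (-0.37 ± 0.09, adjusted p = 0.0232). Heart 20 was lowest and heart 27 highest of the 4 Ant1 vector hearts. Cd36 had 1650, 1322, 1486 and 1268 CPM with the Ant1 vector, against 1882, 1888 and 1792 CPM with the control vector (-0.37 ± 0.11, adjusted p = 0.0478). Etfdh had 429, 498, 522 and 462 CPM with the Ant1 vector and 581, 660 and 674 CPM with the control vector (-0.42 ± 0.10, adjusted p = 0.0234). The groups were apart for all 3 genes. Acacb and Hadha, which were higher in KO than in WT hearts, gave log2 fold changes of -0.03 (adjusted p = 0.892) and 0.00 (adjusted p = 0.989) between the vectors in KO hearts, with 95% intervals of -0.21 to 0.15 and -0.18 to 0.18. Bdh1 gave -0.46 ± 0.18 (adjusted p = 0.132), with 333, 277, 281 and 185 CPM with the Ant1 vector and 331 to 414 CPM with the control vector. Only heart 20 reached the control vector range. Lpl (-0.05), Cpt2 (0.11), Acadm (0.06), Angptl4 (-0.33), Plin5 (-0.18), Ppara (-0.05) and Oxct1 (0.19) had adjusted p values between 0.154 and 0.856.

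Acsl1 missed the threshold without KO Ant1 vector heart 20 or KO control vector heart 36 or 38 (adjusted p 0.0588 to 0.089), as did Etfdh (0.0656 to 0.1), and Cd36 missed it without any 1 heart but Ant1 vector heart 20 (0.0813 to 0.139). None of the 3 passed with only the compared groups in the fit (adjusted p 0.103 for Acsl1, 0.0506 for Etfdh and 0.0668 for Cd36), and in heart 27 single libraries read Cd36 at 264 to 2137 CPM. Endothelial markers summed to 676 to 708 CPM with the Ant1 vector and 567 to 621 CPM with the control vector, without overlap, and 1 of 5 rose. The part of the endothelial markers in the Cd36 value was not tested. Of 8 cardiomyocyte markers 1 rose and 1 fell, and their part in these values was not tested.

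In KO ND6 hearts Cpt1a, the carnitine palmitoyltransferase isoform of liver that heart expresses beside the muscle form, had 83.2, 127 and 113 CPM with the Ant1 vector (hearts 37, 5 and 8). With the control vector it had 57.5, 76.0 and 72.2 CPM. All 3 Ant1 vector hearts were above the control vector hearts (0.65 ± 0.14, adjusted p = 0.0157). Oxct1 had 1232, 1108 and 1100 CPM with the Ant1 vector and 844, 877 and 1022 CPM with the control vector (0.33 ± 0.08, adjusted p = 0.0413), also without overlap. On library totals without TMM scaling, heart 37 read Oxct1 at 1320 to 1632 CPM in 1 table and 781 to 1084 CPM in the other. Angptl4 had 7.58, 14.6 and 13.5 CPM with the Ant1 vector, all above the 3.32 to 4.38 CPM with the control vector, and gave 1.64 ± 0.47 (adjusted p = 0.0634). DESeq2 called 3 genes, with Angptl4 added to Cpt1a and Oxct1. Cd36 (-0.05), Lpl (-0.14), Cpt2 (0.33), Acadm (-0.01), Hadha (0.21), Etfdh (-0.09), Plin5 (0.40), Ppara (-0.07) and Bdh1 (0.16) had adjusted p values between 0.0994 and 0.984.

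Without heart 8, whose Slc25a4 was like that of control vector hearts, Cpt1a gave 0.62 (adjusted p = 0.0588) and Oxct1 0.36 (adjusted p = 0.0688). Without heart 37 or control vector heart 20 or 21 Oxct1 gave adjusted p values of 0.118, 0.182 and 0.165, and Cpt1a gave 0.0997 without control vector heart 20, while without heart 5 they were 0.0646 for Cpt1a and 0.0585 for Oxct1. With only the compared groups in the fit neither passed (0.0903 for Cpt1a and 0.144 for Oxct1), nor with hearts 61 and 91 counted as Ant1 vector hearts (0.159 and 0.129). Endothelial markers summed to 774 to 879 CPM in KO ND6 hearts with the Ant1 vector and 590 to 624 CPM with the control vector, where 2 of 5 rose. Atrial markers summed to 1270 to 4530 CPM with the Ant1 vector and 4640 to 4890 CPM with the control vector, and 1 of 8 adipocyte markers fell, with Cfd at 4.31 to 43.1 CPM and 34.3 to 139 CPM. Of 8 cardiomyocyte markers 1 rose. The part of these markers in these results was not tested.

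**Figure D3:**
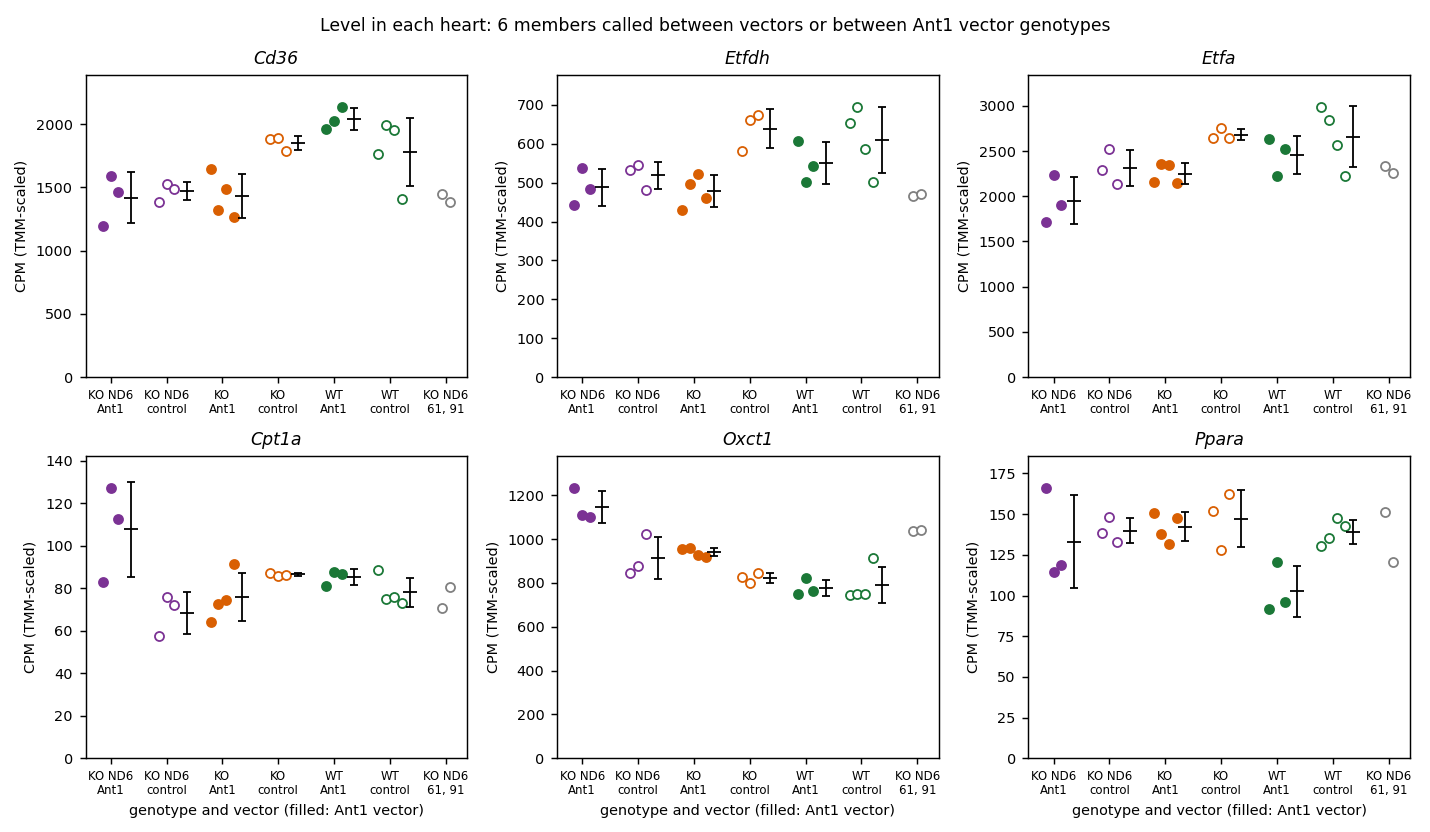
CPM of 6 genes in each heart (points, filled for the Ant1 vector), with the group mean and SD beside them. Cd36 has its highest mean in WT Ant1 vector hearts, at 2044 CPM, Oxct1 its highest in KO ND6 Ant1 vector hearts, at 1147 CPM, and Ppara its lowest in WT Ant1 vector hearts, at 103 CPM.

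In WT hearts Ppara had 91.8, 121 and 95.8 CPM with the Ant1 vector and 131, 135, 147 and 143 CPM with the control vector. The groups did not overlap, but the log2 fold change of -0.44 ± 0.12 missed the threshold (adjusted p = 0.157). The largest rise of a named gene there was Angptl4 at 0.33 ± 0.41 (adjusted p = 0.807). For Cd36, Lpl, Acsl1, Hadha and Oxct1 the values were 0.20, -0.12, -0.07, 0.24 and -0.02, with adjusted p between 0.316 and 0.94. Cpt2 (0.17), Acadm (0.10), Etfdh (-0.15), Plin5 (-0.11) and Bdh1 (0.23) had adjusted p between 0.563 and 0.782. None of the 11 beta-oxidation genes passed between vectors in any of the 3 genotypes in edgeR or in DESeq2, and all 11 lay within 1.2-fold in each. So did 9551 of all 15403 amplicons in KO ND6, 9459 in KO and 10985 in WT hearts. At an unadjusted p under 0.05 there was 1 of the 11 in KO ND6 hearts, 0 in KO hearts and 1 in WT hearts. Over all 15403 amplicons these counts were 3008, 3351 and 1795.

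The vector differences in KO ND6 and in KO hearts were then set against each other, a comparison added after the values were seen. In it 2 of 31 genes were higher (background 0.805%) and none lower (background 0.617%), with a median of 0.21 against 0.00 over all amplicons. Cpt1a differed by 0.84 ± 0.19 (adjusted p = 0.0276) and Acsl1 by 0.55 ± 0.13 (adjusted p = 0.0438). For Cpt1a the vector difference was 0.65 in KO ND6 and -0.19 in KO hearts, and for Acsl1 it was 0.18 and -0.37. Acsl1 missed the threshold without any 1 of 12 of the 13 hearts (adjusted p 0.0518 to 0.137), the exception being KO heart 27, and Cpt1a without any 1 of 10 (0.051 to 0.101). Neither passed with only the compared groups in the fit (0.0757 for Cpt1a and 0.118 for Acsl1) or with hearts 61 and 91 counted as Ant1 vector hearts (0.172 and 0.105). With hearts 27 and 37 both left out, 4 genes passed, with Angptl4 and Slc27a1 added, and Cpt1a differed by 1.10. That count is given without the share of all amplicons called in the same run. Angptl4 gave 1.97 ± 0.62 with all hearts (adjusted p = 0.122). Of 8 adipocyte markers 1 was lower in this comparison, with a median of -2.83 over the 8, and their part was not tested.

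The differences between null and WT hearts under the Ant1 vector were also set against those under the control vector. For KO against WT no gene of the list passed in edgeR (background 0.221% higher and 0.279% lower). At an unadjusted p under 0.05 there were 4 of 31, beside 2259 of all 15403 amplicons. DESeq2 called 1, Cd36, which gave -0.57 ± 0.15 in edgeR (adjusted p = 0.0899). For KO ND6 against WT none passed in edgeR (background 0.201% higher and 0.0714% lower) or in DESeq2. Here 7 of 31 had an unadjusted p under 0.05, beside 1615 of all 15403 amplicons. With hearts 27 and 37 both left out Cpt1a passed there. Bdh1, whose rise in KO hearts was 0.90 under the control vector, gave 0.20 ± 0.18 under the Ant1 vector (adjusted p = 0.538) and a difference of -0.70 ± 0.25 between them (adjusted p = 0.208).

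Under the Ant1 vector both nulls had more Acacb and Oxct1 RNA and less Cd36 RNA than WT hearts. In KO against WT, 3 of 31 genes rose (background 5.37%) and 2 fell (background 4.53%). In KO ND6 against WT, 5 rose (background 10.8%) and 2 fell (background 8.71%), and in KO ND6 against KO 1 rose (background 1.07%) and none fell (background 0.584%). Both directions together made 16.1% of the list against 9.89% of all amplicons in KO, and 22.6% against 19.5% in KO ND6 hearts. The medians were -0.08, 0.04 and 0.03, beside 0.01, 0.00 and 0.00 over all amplicons. The comparisons of KO and of KO ND6 share the 3 WT hearts.

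Oxct1, the enzyme that commits ketone bodies to oxidation, had 1232, 1108 and 1100 CPM in KO ND6 hearts and 955, 958, 929 and 919 CPM in KO hearts, against 751, 820 and 762 CPM in WT hearts. The 3 genotypes did not overlap. The log2 fold change was 0.56 ± 0.08 in KO ND6 (adjusted p = 0.000115) and 0.27 ± 0.08 in KO hearts (adjusted p = 0.0314). Acacb had 370, 332 and 313 CPM in KO ND6 hearts, 294, 280, 295 and 340 CPM in KO hearts and 238, 255 and 205 CPM in WT hearts. Both nulls were above WT, with 0.54 ± 0.10 (adjusted p = 0.000596) and 0.38 ± 0.09 (adjusted p = 0.0109). The libraries of heart 37 read Acacb at 286 to 309 CPM in 1 table and 438 to 480 CPM in the other, and those of heart 27 at 180 to 250 CPM and 400 to 572 CPM, on library totals without TMM scaling. In the same tables heart 37 read Oxct1 at 1320 to 1632 CPM and 781 to 1084 CPM, and heart 27 at 789 to 1434 CPM and 609 to 1140 CPM. Without hearts 27 and 37 both Acacb calls and both Oxct1 calls stood, at 0.46 and 0.49 in KO ND6 and 0.31 and 0.28 in KO hearts.

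Cd36 had 1197, 1592 and 1463 CPM in KO ND6 hearts and 1650, 1322, 1486 and 1268 CPM in KO hearts, against 1966, 2029 and 2137 CPM in WT hearts. Every null heart was below every WT heart (-0.53 ± 0.12, adjusted p = 0.00326, and -0.51 ± 0.11, adjusted p = 0.0041). The lowest of each null were hearts 37 and 27, and the other null hearts had 1322 to 1650 CPM. On library totals without TMM scaling, heart 37 read Cd36 at 1370 to 1659 CPM in 1 table and 517 to 1016 CPM in the other. Heart 27 read it at 264 to 2137 CPM and 500 to 1069 CPM in the same tables. Endothelium expresses Cd36 too, and 4 of 5 endothelial markers were higher in KO ND6 than in WT hearts (774 to 879 CPM and 587 to 673 CPM summed). In KO hearts they summed to 676 to 708 CPM, and their part in the Cd36 values was not tested. Ppara had 151, 138, 132 and 148 CPM in KO hearts and 91.8, 121 and 95.8 CPM in WT hearts (0.47 ± 0.12, adjusted p = 0.0201). As given above, these WT hearts were also below the WT hearts of the control vector. Decr1, a reductase for unsaturated fatty acids, had 707 to 784 CPM in KO hearts and 869 to 957 CPM in WT hearts (-0.27 ± 0.08, adjusted p = 0.0432). In KO against WT hearts 1 of 8 cardiomyocyte and 1 of 4 macrophage markers fell, and their part was not tested.

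In KO ND6 hearts Acsl1 (0.38 ± 0.10, adjusted p = 0.0102), Mlycd, which breaks down malonyl-CoA (0.50 ± 0.16, adjusted p = 0.0303), and Hadha (0.30 ± 0.10, adjusted p = 0.037) also rose against WT. Etfa, a subunit of the electron transfer flavoprotein, fell by 0.34 (adjusted p = 0.0257). Acsl1 had 1120, 1050 and 959 CPM in KO ND6 hearts and 816, 829 and 768 CPM in WT hearts, with no overlap. Mlycd had 31.5, 52.1 and 40.7 CPM in KO ND6 hearts and 32.8, 24.2 and 30.8 CPM in WT hearts. Hadha had 727, 907 and 838 CPM in KO ND6 hearts and 751, 670 and 588 CPM in WT hearts, and Etfa 1716, 2230 and 1899 CPM in KO ND6 hearts and 2636, 2226 and 2518 CPM in WT hearts. These last 3 genes overlapped, each through heart 37 or heart 5. Against WT, 2 of 4 atrial markers fell, with sums of 1270 to 4530 CPM in KO ND6 hearts and 4800 to 5320 CPM in WT hearts and no overlap. Of 8 adipocyte, 4 brown adipocyte and 4 macrophage markers 1 of each fell, and of 5 fibroblast markers 1 rose. Of 8 cardiomyocyte markers 1 rose and 2 fell. The part of these markers was not tested. Cpt1a was higher in KO ND6 than in KO hearts, with 83.2, 127 and 113 CPM against 64.3, 72.8, 74.6 and 91.3 CPM (0.51 ± 0.13, adjusted p = 0.0483), and heart 27 lay above heart 37. In KO ND6 against KO hearts 2 of 8 adipocyte, 1 of 4 atrial and 1 of 8 cardiomyocyte markers fell, and their part was not tested.

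The KO ND6 and WT Ant1 vector hearts shared no tables, and only KO heart 20 shared tables with the WT hearts. With the table set in the fit Oxct1 still passed in both nulls (0.59, adjusted p = 0.002, in KO ND6 and 0.30, adjusted p = 0.0402, in KO), as did Acacb in KO ND6 (0.49, adjusted p = 0.029) and Ppara in KO (0.55, adjusted p = 0.0482). Acacb in KO (0.34, adjusted p = 0.0688), Cd36 (-0.26, adjusted p = 0.291, in KO ND6 and -0.31, adjusted p = 0.134, in KO), Hadha (0.35, adjusted p = 0.132), Etfa (-0.42, adjusted p = 0.0711), Decr1 (-0.36, adjusted p = 0.0808) and Cpt1a between KO ND6 and KO (0.42, adjusted p = 0.0855) did not pass. Oxct1, at 0.29 ± 0.08 between KO ND6 and KO with groups only (adjusted p = 0.0669), passed with the table set (0.29, adjusted p = 0.011) and in DESeq2 (adjusted p = 0.0245). Acsl1 came to 0.00 (adjusted p = 0.99) and Mlycd to 0.10 (adjusted p = 0.821). In KO heart 20 Oxct1 was 955 CPM, Acacb 294 CPM and Ppara 151 CPM, each above all 3 WT hearts of the same tables. Cd36 was 1650 CPM and Decr1 707 CPM there, each below those WT hearts. The KO and WT ranges given above are apart for each of these genes, so heart 20 could lie nowhere else. Its values therefore add no test within the shared tables and do not restore the calls lost with the table set.

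Cd36 in both nulls, and Oxct1 and Acacb in KO ND6, passed with any 1 heart left out. In KO hearts Acacb missed the threshold without WT heart 83 (adjusted p = 0.0906), Ppara without WT heart 80 or 83 (0.111 and 0.102), Oxct1 without KO heart 20 or 21 or WT heart 80 or 83 (0.0603 to 0.12) and Decr1 without any 1 of the 7 hearts (0.0579 to 0.171). In KO ND6 hearts Acsl1 missed it without WT heart 83 (0.0505), Etfa without KO ND6 heart 37 or 8 or WT heart 80 or 83 (0.0756 to 0.119), and Hadha (0.0886 to 0.192) and Mlycd (0.0588 to 0.198) without KO ND6 heart 5 or 8 or WT heart 81 or 83. Cpt1a against KO missed it without KO ND6 heart 5 or 8 or KO heart 20, 21 or 22 (0.109 to 0.218).

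**Figure D4:**
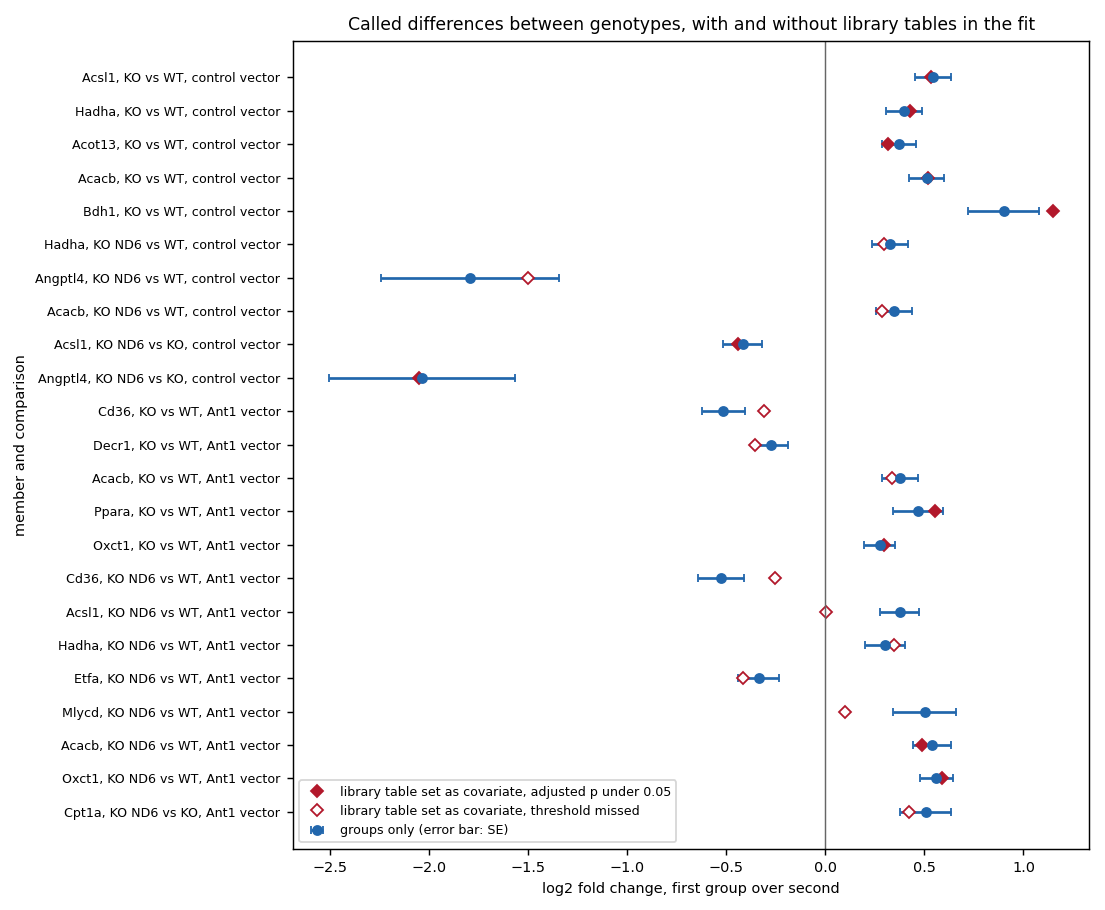
Log2 fold change with its SE of the 23 called differences between genotypes (circles), beside the same from a fit with the library table set as a covariate (diamonds, filled where the adjusted p is under 0.05). All 23 keep their direction and 11 stay past the threshold, and Acsl1 and Mlycd in KO ND6 against WT under the Ant1 vector move nearest to 0, at 0.00 and 0.10.

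A second list held 65 tested genes of the same and neighbouring pathways, among them peroxisomal oxidation, lipid droplets and triglyceride synthesis. Under the control vector 12 of 65 rose and none fell in KO hearts against WT, and 10 rose and 6 fell in KO ND6 hearts against WT. None passed in either direction between KO ND6 and KO hearts in edgeR, and DESeq2 called 4. There, 15 of 65 had an unadjusted p under 0.05, beside 2231 of all 15403 amplicons. The shares of 18.5% in KO and 24.6% in KO ND6 hearts stood beside 14.4% and 12.7% of all amplicons. This list too was chosen with earlier results of these data known, so its shares here and below are descriptions and no test of the list. Both sets of calls share the WT hearts.

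Plin3, a lipid droplet coat protein, had 743 to 830 CPM in KO ND6 and 890 to 1145 CPM in KO hearts, against 334 to 434 CPM in WT hearts. Its log2 fold change was 1.08 (adjusted p = 7.94e-07) in KO ND6 and 1.44 (adjusted p = 7.96e-09) in KO hearts. Abcd3, which carries fatty acyl-CoA into peroxisomes, had 53.5 to 57.6 CPM in KO ND6 and 76.3 to 77.8 CPM in KO hearts, against 35.5 to 39.2 CPM in WT hearts. The 3 genotypes did not overlap for either gene. Acad11, an acyl-CoA dehydrogenase, rose by 0.72 and 0.78 in the same 2 nulls, and Agpat2, an enzyme of glycerolipid synthesis, by 0.52 and 0.62. Esrrg (0.43), a nuclear receptor of oxidative genes, and Pex11a (0.46), a peroxisome division protein, also rose in KO hearts. Acss1, which activates acetate, and Slc16a1, a carrier of lactate and ketone bodies, each fell by 0.34 in KO ND6 hearts. The calls of Plin3, Abcd3, Acad11 and Agpat2 in both nulls passed with any 1 heart left out and with the table set in the fit.

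Between vectors, none of the 65 rose and 6 fell in KO hearts, led by Abcd3 (-0.75, adjusted p = 0.00182), Ehhadh (-0.78, adjusted p = 0.0152) and Hsd17b4 (-0.50, adjusted p = 0.0207), all of peroxisomal oxidation, with Plin3 (-0.40), Ucp3 (-0.89) and Agpat2 (-0.31) after them. That is 9.23% of the list beside 5.47% of all amplicons, and the 4 calls in KO ND6 hearts are 6.15% beside 2.53%. In KO ND6 hearts Nr4a1 (3.33, adjusted p = 0.0284), Gpam (0.56, adjusted p = 0.0287) and Pdk4 (1.29, adjusted p = 0.0468) rose with the Ant1 vector and G0s2, an inhibitor of lipolysis, fell by 0.97 (adjusted p = 0.0439). Pdk4, a PPAR target that turns glucose oxidation down, had 705 to 1315 CPM with the Ant1 vector and 261 to 484 CPM with the control vector. In WT hearts none of the 65 passed in edgeR, and DESeq2 called 1, Dgat1. There, 9 of 65 had an unadjusted p under 0.05, beside 1795 of all 15403 amplicons. Of these 10 calls, that of Abcd3 in KO hearts passed with any 1 heart left out, and the others missed the threshold in at least 1 such run, with a highest adjusted p of 0.0676 to 0.19.

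Under the Ant1 vector 4 of 65 rose and 2 fell in KO against WT, 19 rose and 3 fell in KO ND6 against WT, and 6 rose and none fell in KO ND6 against KO. The shares called were 9.23% beside 9.89% of all amplicons in KO against WT, 33.8% beside 19.5% in KO ND6 against WT and 9.23% beside 1.66% in KO ND6 against KO. Acad11 rose by 0.95 in KO ND6 and 0.78 in KO hearts against WT, Plin3 by 0.99 and 1.11, and Agpat2 by 0.87 and 0.43. Slc16a1 fell by 0.56 in KO ND6 and 0.29 in KO hearts, and G0s2 by 1.31 and 0.83. Dgat1, which makes triglyceride, rose by 0.47 in KO hearts. Gpam (0.58), Ucp3 (1.06), Ehhadh (0.70), Agpat2 (0.43), Esrrb (0.34) and Nr4a1 (2.71) were higher in KO ND6 than in KO hearts. In the comparison of the vector differences between these nulls Ehhadh (1.38, adjusted p = 0.0114), Ucp3 (1.90, adjusted p = 0.0138) and Abcd3 (0.80, adjusted p = 0.021) passed with Gpam (0.80), Agpat2 (0.54), Nr4a1 (4.19) and Scd1, which was lower (-3.51, adjusted p = 0.0417). These 7 are 10.8% of the list beside 1.42% of all amplicons, and of them Ehhadh passed with any 1 heart left out. In the same comparison 1 of 8 adipocyte markers was lower, with a median log2 fold change of -2.83 over the 8. Their part in the Scd1 value and the others was not tested. In the comparison of the vector differences between KO and WT hearts Abcd3 was lower (-0.72, adjusted p = 0.0468, up to 0.113 with 1 heart left out). It was the only call of the 65 there, 1.54% of the list beside 0.5% of all amplicons.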

How the data were processed

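The authors deposited unnormalized counts, 1 number per amplicon and library, from AmpliSeq libraries sequenced on an Ion Torrent S5 per the labels' protocols, with mm10 as the build per the submitters' processing notes. No source used here names the aligner, the counting software or the strand setting. Counts of 112 libraries in 14 tables were summed per heart, with the title number read as the heart, and 27 symbols turned into dates were restored. The libraries 80a and 80b, whose labels conflict, entered no group, and 3 samples of single nuclei are not used here.

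All 22 hearts in 7 groups entered 1 edgeR 4.0.16 fit (R 4.3.3, filterByExpr, TMM, quasi-likelihood F-test, 15 residual degrees of freedom, no covariates), with Benjamini-Hochberg adjustment over 15403 amplicons and 0.05 as the threshold. Library totals ran from 2893780 to 8531273 reads. The fit was tested on simulated data. Levels are not compared between genes, since amplicons differ. A range of -1.96 to 1.96 SE gives the 95% intervals. Counts of genes called by DESeq2 are given without the share of all amplicons that it called. Alternatives were other size factors, no filter, DESeq2 1.42.0, only the compared groups, the table set as covariate, other places for hearts 61 and 91, libraries 80a and 80b added, each heart left out and, added after the data were seen, hearts 27 and 37 left out together. Gene positions come from GENCODE vM21 (mm10), and promoter windows from RefSeq on GRCm38.p6.

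The members and lists were chosen with earlier results of these data known. All members were named, with values for those past the threshold and for a fixed few in each comparison, and of the second list up to 6 genes per comparison by smallest adjusted p. In the vector difference between KO ND6 and KO all 7 called genes of that list were named, a choice made after their values were seen.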

Additional observations from a re-analysis of the deposited data

Results flagged for a closer look

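In groups of 4 hearts, a heart counted as far from the others when its gap to the nearest one, as a part of the group's range, passed Dixon's critical value for 4. Of 62 gene and group pairs 6 met this, where chance gives about 1 in 20. Angptl4 was 26.8 CPM in KO Ant1 vector heart 27 and 6.22 to 8.32 CPM in the other 3 (gap 0.898), and its libraries in both tables read 21.2 to 41.1 CPM. Ppard was 66.8 CPM in the same heart and 50.04 to 52.6 CPM in the others (gap 0.845), with 45.3 to 57.0 CPM in the libraries of 1 table and 82.3 to 85.2 CPM in those of the other. Plin5 was 131 CPM in KO Ant1 vector heart 22 and 115 to 118 CPM in the others (gap 0.84). In WT control vector heart 23, where Alb was 159 CPM, Slc27a1 was 233 CPM beside 203 to 205 CPM (gap 0.929) and Cpt1a 88.5 CPM beside 73.3 to 75.8 CPM (gap 0.836). Oxct1 was 911 CPM in WT control vector heart 70 and 747 to 751 CPM in the other 3 (gap 0.974).

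The vector difference differed between KO ND6 and KO hearts for Acsl1 (by 0.55 on the log2 scale) and Cpt1a (by 0.84), by the test of the difference itself. That comparison was added after the values were seen. With 1 heart left out, Acsl1 missed the threshold in 12 of 13 runs and Cpt1a in 10 of 13.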

How the results depend on the processing

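No paired analysis was possible because the groups compared share no heart number (20, 21 and 22 occur in KO Ant1 vector and KO ND6 control vector hearts, which are not compared). All 5 calls of KO against WT under the control vector held under every alternative run. Of 422 values of called genes under alternatives, 283 kept direction and side of the threshold, 139 missed it and none changed sign. The counts here and in the next paragraph are given without the share of all amplicons called in the same runs. Counts of called genes that moved by over 1.5 times were these. With RLE size factors they were 1 for the vector in KO ND6 hearts, 0 for KO ND6 against KO under the Ant1 vector and 1 for the vector difference between KO ND6 and KO. Without the low-count filter they were 1 for KO ND6 against KO under the control vector, 1 for the vector in KO ND6, 3 for KO against WT under the Ant1 vector and 1 for the vector difference. With only the compared groups in the fit they were 4 for KO ND6 against KO under the control vector, 0 for the vector in KO, 1 for the vector in KO ND6, 2, 4 and 0 for KO against WT, KO ND6 against WT and KO ND6 against KO under the Ant1 vector, and 0 for the vector difference. With the table set as covariate they were 1 for KO ND6 against WT under the control vector (Bdh1), 2 and 2 for KO and KO ND6 against WT under the Ant1 vector, and 1 for the vector difference. With hearts 61 and 91 as control vector hearts they were 8 and 4 for KO ND6 against WT and KO under the control vector and 1 for the vector in KO ND6, and as Ant1 vector hearts 0 for the vector in KO ND6, for KO ND6 against KO under the Ant1 vector and for the vector difference. With hearts 27 and 37 left out together they were 4 for the vector in KO ND6, 2 for KO ND6 against KO under the Ant1 vector, 4 for the vector difference and 1 for the interaction of KO ND6 and WT. DESeq2 gave 3 for KO ND6 against KO under the Ant1 vector and 1 for the interaction of KO and WT. The cause was not tested.

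With each heart left out in turn the counts ran from 5 to 5 for KO against WT, 0 to 7 for KO ND6 against WT and 0 to 1 for KO ND6 against KO under the control vector, 0 to 3, 0 to 4 and 0 to 0 for the vector in KO, KO ND6 and WT hearts, and 1 to 6, 3 to 9 and 0 to 2 for KO against WT, KO ND6 against WT and KO ND6 against KO under the Ant1 vector. They ran from 0 to 3 for the vector difference between KO ND6 and KO and stayed at 0 for both interactions with WT. Groups had 3 or 4 hearts, and the median SE of the 31 genes was 0.11 on the log2 scale between KO and WT hearts under the control vector.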

Other observations

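Hearts 61 and 91, the KO ND6 hearts with conflicting vector labels, had 5.69 and 8.60 CPM of Angptl4, 70.7 and 80.9 CPM of Cpt1a and 1036 and 1041 CPM of Oxct1. Acacb was 303 and 312 CPM there, Acsl1 924 and 956 CPM, and Cd36 1446 and 1388 CPM. Libraries 80a and 80b of the WT heart 80, assigned to no group, read Angptl4 at 17.2 to 18.0 CPM, Cd36 at 1977 to 2004 CPM and Oxct1 at 683 to 793 CPM, on library totals without TMM scaling.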
